A study of Mus musculus with 12 samples.

Results

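The genes described here are 10 genes of myelin and of the oligodendrocytes that make it: Mbp, Mobp, Mog, Mag, Cnp, Cldn11, Mal, Ermn, Trf and Olig1. They were taken by name and make up 10 of the 47643 gene rows of the count table. Their counts were compared between brain cells with high and with low red fluorescence, RFPHigh (labelled RFPpos) and RFPLow (labelled RFPneg).

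Both populations came from the same 5 male p16-3MR mice on a C57BL/6 background, which were 113, 115, 116, 116 and 116 weeks old (mice 1 to 5), and each mouse gave 1 sample of each. In p16-3MR mice the p16 promoter drives a transgene for luciferase, a red fluorescent protein and a viral thymidine kinase, so that fluorescence reports activity of that promoter, and no younger or non-transgenic animals were compared here. Brains were dissociated in the cold with a protease, myelin debris was taken off by a Percoll spin, and viable nucleated cells were sorted by fluorescence. The spin came before the sort and so applied to both populations. The libraries were made from the 3′ ends of transcripts, so that each transcript gives 1 tag and levels, in CPM (counts scaled to a common total of counts on genes), were not divided by gene length. The gene counts summed to 177287 to 415834 per sample in RFPLow and to 222560 to 289713 in RFPHigh.

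Oligodendrocytes wrap axons of the central nervous system in layers of membrane. Compact myelin is held together by Mbp and Mobp on the cytoplasmic side of the membrane, while Mog and Mag lie on its outer and innermost surfaces and Cldn11 forms the tight junctions between its layers. Cnp keeps cytoplasmic channels open, Mal is a lipid raft protein, Ermn binds actin in late differentiation, Trf carries iron, and Olig1 is a transcription factor of the lineage. Trf is also made by other cells, the choroid plexus among them.

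Of the 10 genes, 9 were called lower in RFPHigh and 1, Trf, was not called. Calls required more than 1 unit of log2 fold change in either direction and an adjusted p below 0.05 (Benjamini-Hochberg) in edgeR's quasi-likelihood test with the mouse as a block. The minimum count filter left 4210 genes, 9 of the 10 among them, and 8 of these 9 were called lower, where 9.14% of all tested genes were called lower and 5.75% higher. Mog had too few counts for that filter. Over all 4210 genes, 385 were called lower and 242 higher, a split that became 2511 and 2 with library sizes from 20 microglia markers and 466 and 149 with library sizes that include reads on no gene. Mog was called lower in a wider fit to the 12270 genes with at least 10 counts over the 10 samples, in which 6.75% were called lower and 2.8% higher. A gene rich in RFPLow alone can pass the filter, so these counts describe the genes and are no measure of how far the list stands apart. The median log2 fold change of the 10 genes was −3.57, beside −0.03 over all genes of the first fit and −0.15 over the wider one. In bulk samples, fewer cells of a type and less RNA in each cell cannot be told apart.

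Promoter windows of 250 bases before to 50 after the start of the gene were available for 7 of the 10 genes (RefSeq, GRCm38.p6), as 9 windows, with none for Mbp, Trf and Olig1. They were searched on both strands for an E-box (CANNTG), which Olig factors bind, the SOX core ACAAT, the MYRF core (CTGGCAC or its variant, CTGGTAC) and the TATA box TATAAA. MYRF and SOX10 are factors that switch on myelin genes. Of all 32851 windows, 72.3% held an E-box, 31% the SOX core, 7.1% the MYRF core and 13.6% the TATA box. Mag had 3 of the 9 windows, of which 2 overlap, so matches are counted by gene and are not compared with the shares of all windows. Of the 7 genes, 3 had a window with the MYRF core (Mog, Mag and Cnp), 1 with the SOX core (Ermn), 2 with an E-box (Mag and Cnp) and 0 with the TATA box. The E-box form CAGCTG was held by 16.3% of all windows. The form CATATG was held by 3.91% and the form CATCTG by 17.2%. All 3 forms were in 0 of the 9 windows. The windows with a MYRF or SOX core of the genes that had a single window are shown 5′ to 3′ on the strand of the gene, for Mog (chr17:37023349-37023648, minus strand), Cnp (chr11:100574689-100574988, plus strand) and Ermn (chr2:58052815-58053114, minus strand). Capitals mark the MYRF core in Mog and Cnp, an E-box upstream of it in Cnp and the SOX core in Ermn. A match describes letters and was not tested as a binding site.
Mog: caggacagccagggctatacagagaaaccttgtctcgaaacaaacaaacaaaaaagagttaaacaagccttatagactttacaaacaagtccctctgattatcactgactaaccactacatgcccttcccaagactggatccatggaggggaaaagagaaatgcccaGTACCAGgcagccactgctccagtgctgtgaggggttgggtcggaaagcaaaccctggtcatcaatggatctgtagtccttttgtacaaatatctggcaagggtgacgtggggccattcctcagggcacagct
Cnp: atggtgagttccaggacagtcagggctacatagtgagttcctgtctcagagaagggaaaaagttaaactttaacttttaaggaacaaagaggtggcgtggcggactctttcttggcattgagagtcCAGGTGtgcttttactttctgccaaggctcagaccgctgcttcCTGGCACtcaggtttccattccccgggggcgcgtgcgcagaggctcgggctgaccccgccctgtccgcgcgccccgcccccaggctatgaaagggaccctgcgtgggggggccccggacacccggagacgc
Ermn: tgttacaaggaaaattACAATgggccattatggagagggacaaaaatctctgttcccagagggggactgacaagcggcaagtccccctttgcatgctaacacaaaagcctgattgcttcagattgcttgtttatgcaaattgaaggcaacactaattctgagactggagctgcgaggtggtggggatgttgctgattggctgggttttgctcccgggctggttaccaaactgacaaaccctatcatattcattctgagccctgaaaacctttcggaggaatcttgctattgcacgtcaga

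**Figure D1:**
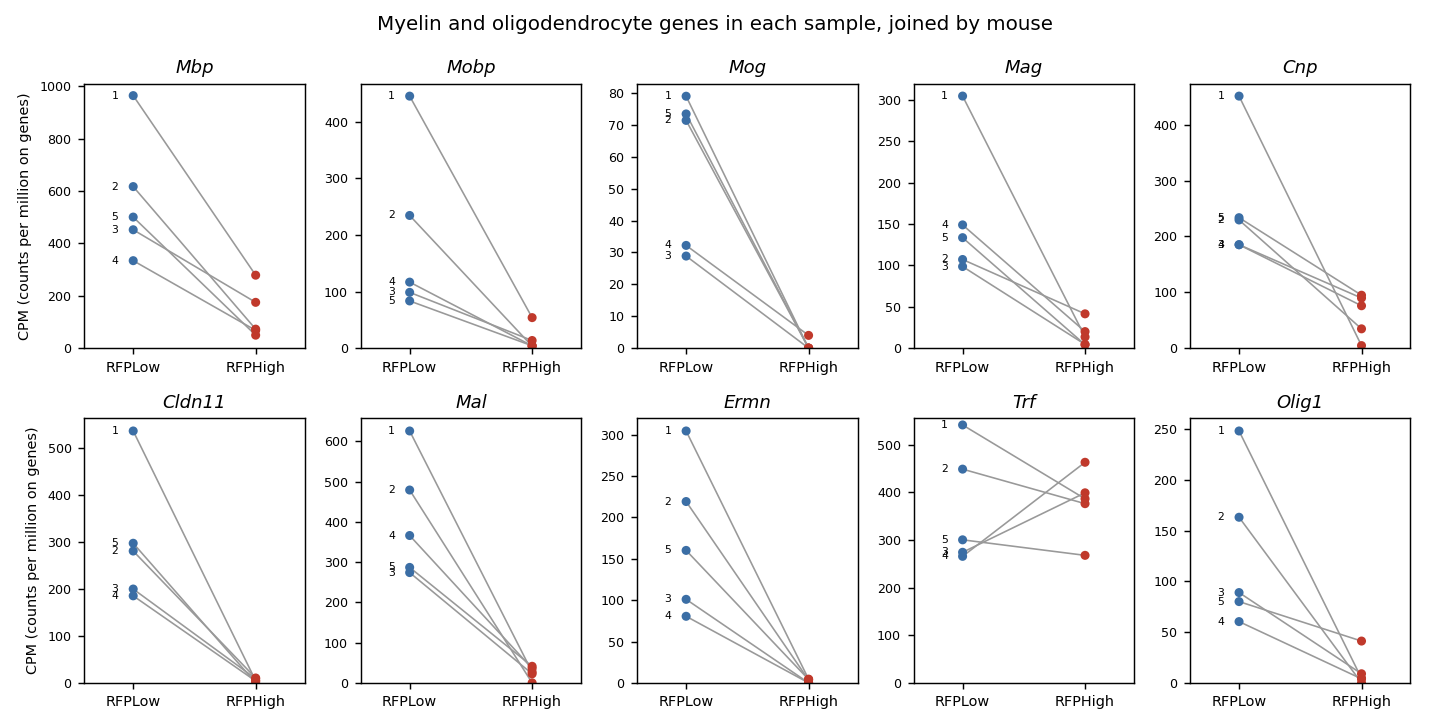
CPM of each gene in each sample, with RFPLow in blue and RFPHigh in red, lines joining the samples of a mouse and the mouse number beside each RFPLow point. Of the 10 genes, 9 were lower in RFPHigh in 5 of 5 mice, and Trf was lower in 3 of 5.

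Mbp, a major protein of compact myelin, had 171, 121, 188, 83 and 150 counts in the RFPLow samples of mice 1 to 5 and 62, 21, 39, 17 and 12 counts in the RFPHigh samples. These are 574 ± 241 CPM (SD, n = 5) and 129 ± 97.1 CPM (SD, n = 5). The lowest RFPLow sample, with 334 CPM in mouse 4, lay above the highest RFPHigh sample, with 279 CPM in mouse 1, so that the groups did not overlap. The log2 fold change was −2.29, lower in 5 of 5 mice, with a per-mouse mean of −2.28 (SE 0.33), a 95% interval from limma-voom of −2.70 to −1.74 and adjusted p = 2.43e-06 from edgeR.

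Mobp, a small protein of the same membrane face, had 79, 46, 41, 29 and 25 counts in RFPLow and 12, 1, 3, 1 and 1 counts in RFPHigh. Its level was 196 ± 152 CPM (SD, n = 5) in RFPLow and 15.8 ± 21.7 CPM (SD, n = 5) in RFPHigh. The RFPHigh sample of mouse 1, with 53.9 CPM, stood above the other RFPHigh samples and below every RFPLow sample. The log2 fold change of Mobp was −3.75 by edgeR, and it was lower in 5 of 5 mice (95% interval from limma-voom −4.68 to −2.42, adjusted p = 1.26e-06 from edgeR). Without mouse 1 its log2 fold change was −4.35. Mobp overlaps Gm38642 on the same strand, a transcript that is not among the counted genes.

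At the surface of the sheath, Mog had 14, 14, 12, 8 and 22 counts in RFPLow and 0, 0, 0, 1 and 0 counts in RFPHigh. With 1 count in all the RFPHigh samples, the pooled level was 64.3-fold lower, with an exact counting interval from 11.2 to 2576. Mag, which lies against the axon, had 54, 21, 41, 37 and 40 counts in RFPLow and 3, 12, 1, 5 and 1 counts in RFPHigh. The RFPHigh sample of mouse 2 was the highest of its group at 41.4 CPM, and the groups did not overlap for Mog or Mag. The log2 fold change of Mag was −3.15, lower in 5 of 5 mice (95% interval −4.27 to −1.91, adjusted p = 2.42e-05 from edgeR), and −3.93 without mouse 2. That of Mog was −5.35 in the wider fit (95% interval −5.56 to −3.06, adjusted p = 2.43e-08 from edgeR, 3.26e-07 from limma-voom), a size that depends on the prior count at so few counts and was −6.97 without mouse 4, which holds the 1 count, and −4.31 by limma-voom.

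Cldn11, the claudin of the myelin sheath, had 95, 55, 83, 46 and 89 counts in RFPLow and 1, 3, 2, 1 and 0 counts in RFPHigh. Each RFPHigh sample was at or below 10.4 CPM, and each RFPLow sample at or above 185 CPM. The log2 fold change was −5.55, lower in 5 of 5 mice (95% interval −6.77 to −4.10, adjusted p = 8.37e-09 from edgeR). Ermn, of late differentiation, had 54, 43, 42, 20 and 48 counts in RFPLow and 1, 1, 0, 0 and 1 counts in RFPHigh. Its pooled level over 3 counts in RFPHigh was 63.4-fold lower, with an exact counting interval from 21.4 to 309.9, and edgeR gave a log2 fold change of −5.87 (adjusted p = 3.67e-08). Both genes were near the floor of these libraries in RFPHigh and well above it in RFPLow.

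Mal, which sorts lipids and proteins to the myelin membrane, had 111, 94, 114, 91 and 86 counts in RFPLow and 6, 0, 5, 9 and 10 counts in RFPHigh. The levels were 407 ± 147 CPM (SD, n = 5) and 25.3 ± 15.9 CPM (SD, n = 5), without overlap. The log2 fold change of Mal was −3.98 by edgeR, and it was lower in 5 of 5 mice (95% interval from limma-voom −5.17 to −2.88, adjusted p = 3.69e-07 from edgeR).

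Cnp, an enzyme bound to the myelin membrane, had 80, 45, 77, 46 and 70 counts in RFPLow and 1, 10, 20, 19 and 23 counts in RFPHigh. The levels were 257 ± 111 CPM (SD, n = 5) and 59.9 ± 38.9 CPM (SD, n = 5). The RFPHigh samples of mice 3 to 5 lay between 75.9 and 94.7 CPM, the sample of mouse 1 was at 4.49 CPM, and the lowest RFPLow sample was at 185 CPM. The log2 fold change was −2.06 (95% interval −2.53 to −1.05, adjusted p = 8.61e-04 from edgeR), lower in 5 of 5 mice, with per-mouse differences from −5.18 to −1.09. Cnp overlaps Dnajc7 on the opposite strand, which had 298 counts in all. The authors' counting of strand was not given in the sources used here, so reads of the 2 genes may not be told apart.

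Olig1, the transcription factor, had 44, 32, 37, 15 and 24 counts in RFPLow and 1, 0, 2, 1 and 10 counts in RFPHigh. The RFPHigh sample of mouse 5, at 41.2 CPM, stood apart from the other RFPHigh samples, which reached 8.97 CPM, and lay below the lowest RFPLow sample at 60.4 CPM. The log2 fold change was −3.38, lower in 5 of 5 mice (95% interval −5.11 to −2.17, adjusted p = 3.10e-04 from edgeR). It was −4.85 without mouse 5 and −4.11 by DESeq2.

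Trf, the iron carrier, had 96, 88, 114, 66 and 90 counts in RFPLow and 86, 109, 89, 116 and 65 counts in RFPHigh. Its levels were 366 ± 123 CPM (SD, n = 5) and 379 ± 70.6 CPM (SD, n = 5), and the groups overlapped. The log2 fold change was 0.08 (95% interval −0.27 to 0.44, adjusted p = 0.824 from edgeR) and did not pass. With library sizes taken from 20 microglia markers, a scaling that moved the median of all genes by −1.11, it was −1.04 and called lower, with adjusted p from 5.17e-04 to 0.990 over all alternatives. Trf overlaps the gene Gm20425 on the same strand, which had 0 counts in all. How reads on both genes were counted is not given in the sources used here.

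**Figure D2:**
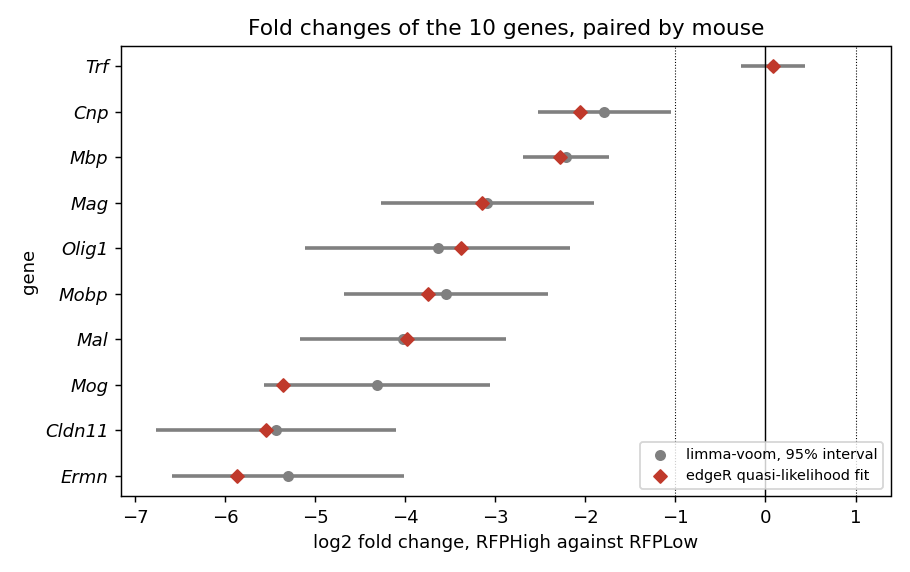
Log2 fold change of each gene, RFPHigh against RFPLow, by edgeR (diamonds) and by limma-voom with its 95% interval (grey), with dotted lines at 1 and −1. The intervals of 9 genes lie below −1, and that of Trf, −0.27 to 0.44, holds 0.

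**Figure D3:**
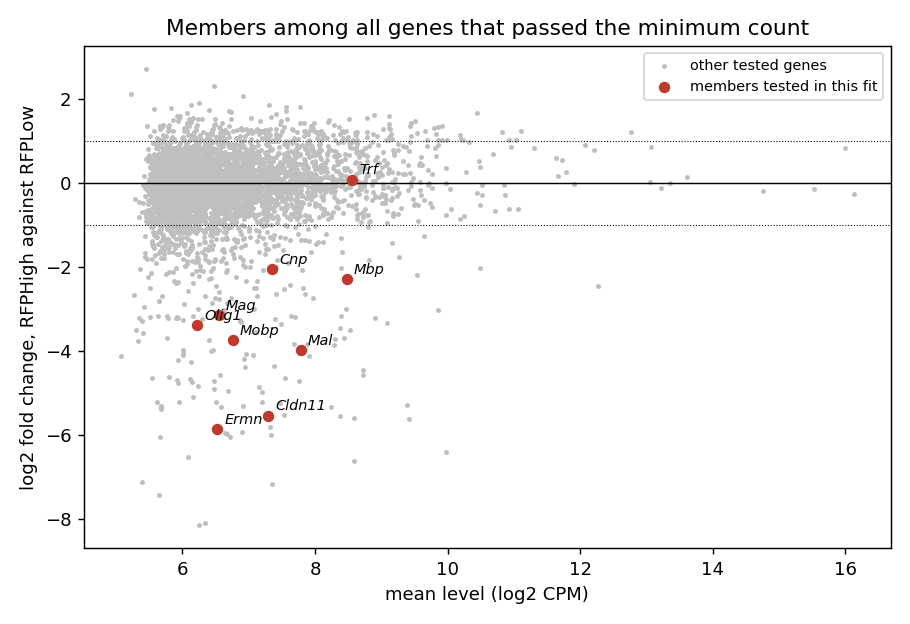
Log2 fold change against mean log2 CPM for the 4210 genes of the first fit, with its 9 members in red and dotted lines at 1 and −1. Trf lies near 0, and the other 8 lie between −2.06 and −5.87.

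The share of all counts on genes that fell on the 10 genes was 0.262% ± 0.114 (SD, n = 5) in RFPLow and 0.0645% ± 0.0117 (SD, n = 5) in RFPHigh. In RFPLow it was 0.450% in mouse 1 (exact 95% interval 0.419 to 0.482%) and between 0.177% and 0.285% in the other mice. RFPHigh samples lay between 0.0507% and 0.0777%, and the share was lower in RFPHigh in 5 of 5 mice, by 2.50 to 5.79-fold. Trf was 14.2% of the counts of the 10 genes in RFPLow and 59.3% in RFPHigh. Without Trf the other 9 genes held 0.225% ± 0.102 (SD, n = 5) of counts in RFPLow and 0.0267% ± 0.00897 (SD, n = 5) in RFPHigh, 4.73 to 14.5-fold lower in each mouse. These intervals cover counting error alone.

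Shares of the 9 genes without Trf are given from pooled counts. Mbp was 26.1% of their 2737 counts in RFPLow and 47.3% of their 319 counts in RFPHigh, and Cnp was 11.6% and 22.9%, but the share was lower in RFPHigh for Mbp in mouse 5 (20.7% against 27.1%) and for Cnp in mouse 1 (1.15% against 11.4%). Cldn11 was 13.4% and 2.19%, and Ermn 7.56% and 0.940%. No test was made of these shares, since the counts of a sample are not independent samples of the group.

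Among the RFPHigh samples the mixture varied. In mouse 1, Mbp and Mobp together had 74 counts, Cnp had 1 and Car2, another enzyme of oligodendrocytes, had 0. In mice 2 to 5 the summed counts of Mbp and Mobp were 22, 42, 18 and 13, those of Cnp 10, 20, 19 and 23 and those of Car2 7, 23, 23 and 16. Mbp made up 71.3% of the counts of the 9 genes in mouse 1 and 20.7% in mouse 5, while in RFPLow it lay between 22.1% and 29.6%. The RFPHigh sample of mouse 1 also had the lowest share of astrocyte markers, 0.106%, where the other RFPHigh samples lay between 0.390% and 0.694%, and of ensheathing glia markers, 0.0112% against 0.123% to 0.172%. The part of these cells in the mixture was not tested.

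Other genes of mature oligodendrocytes and myelin were mostly lower too. Of 43 such genes 40 were tested, 22 of them with the minimum count, and 33 were called lower. The shares of all genes called lower, for this list and those that follow, were 9.14% in the first fit and 6.75% in the wider one. The median log2 fold change of the 40 genes was −3.40, or −3.27 with genes at 0 in RFPHigh put at their bound. Car2 fell from 673 ± 305 to 57.0 ± 44.0 CPM (SD, n = 5), with log2 fold change −3.51 (adjusted p = 1.05e-05 from edgeR), and Qdpr, a pterin reductase, from 326 ± 133 to 59.2 ± 24.3 CPM (SD, n = 5), with −2.43 (adjusted p = 3.89e-06 from edgeR). Enpp2, which the choroid plexus also makes, fell from 724 ± 459 to 181 ± 75.9 CPM (SD, n = 5). Apod, a lipid carrier with the most counts of the list, had 670 ± 103 CPM in RFPLow and 683 ± 365 CPM in RFPHigh (SD, n = 5) and was not called (log2 fold change −0.17, adjusted p = 0.791 from edgeR). Its counts in RFPHigh were 17 in mouse 1 and between 171 and 245 in the other mice, and without mouse 1 its log2 fold change was 0.36.

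Genes at 0 in all 5 RFPHigh samples numbered 9 in this list, of those with any count. Against a floor of 3 counts over the RFPHigh group, Fa2h, which makes hydroxylated myelin lipids, was at least 18.7-fold lower (61 counts in RFPLow), and Ppp1r14a at least 20.5-fold lower (67 counts). Both were chosen for mention after their values were seen. The factor genes Sox10, Olig2, Nkx6-2 and Myrf of the list were not at 0, and each was called lower. Sox10 had 120 and 34 counts in RFPLow and RFPHigh, Olig2 86 and 10, Nkx6-2 46 and 10, and Myrf 42 and 2.

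Genes of earlier stages of the lineage were listed separately, and the lists were not tested against each other. Of 13 genes of committed and newly formed oligodendrocytes, 10 were tested and 4 were called lower, with a median log2 fold change of −1.44. Mpzl1, a surface glycoprotein, fell by 4.30 on the log2 scale from 108 ± 39.6 CPM (SD, n = 5) in the wider fit, which pools the spread over all genes (adjusted p = 6.79e-14 from edgeR, 2.32e-07 from limma-voom). Fyn, a kinase that starts myelination, fell by 1.47 in the first fit (adjusted p = 0.0131 from edgeR). Without mouse 1 the log2 fold change of Mpzl1 was −4.89. Itpr2, a calcium channel, had 167 ± 44.3 CPM in RFPLow and 311 ± 50.9 CPM in RFPHigh (SD, n = 5). Its log2 fold change of 0.92 was below the fold threshold (adjusted p = 0.00178 from edgeR), and without mouse 1 it was 1.01 and past it, while it was −0.20 with library sizes from the microglia markers. Tcf7l2 had 80.8 ± 17.3 and 114 ± 61.6 CPM (SD, n = 5) and was not called.

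Of 17 progenitor genes 14 were tested, and 3 were called lower, beside 9.14% of all genes in the first fit and 6.75% in the wider one. The median log2 fold change of the progenitor genes was −0.88. The count of 3 rested on few counts, and it was 0 without mouse 1, 0 without mouse 2 and 1 without mouse 3. Among the genes with the most counts, Ptprz1, a phosphatase of progenitors and astrocytes, had 490 ± 140 CPM in RFPLow and 550 ± 283 CPM in RFPHigh (SD, n = 5), and 15 counts in the RFPHigh sample of mouse 1 against 152 to 181 in the others. Cspg5 had 201 ± 64.0 and 108 ± 66.2 CPM (SD, n = 5), with adjusted p = 0.0529 from edgeR, and Epn2 and Matn4 were not called. Pdgfra and Cspg4 of the list, with 19 and 17 counts in RFPLow, had 0 in RFPHigh, at least 5.82-fold and 5.21-fold lower against the floor of 3 counts over the group. Of the 14 tested genes 11 were not called, Matn4 with 90 and 91 counts among them. The study's authors used Pdgfra as a marker of fibroblasts as well as of progenitors, and the part of other cells in these values was not tested.

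Of 21 sterol and lipid synthesis genes that myelin formation draws on, 19 were tested and 1 was called lower. This is no more than the 9.14% of all genes called lower in the first fit or the 6.75% in the wider one. The gene called was Elovl7, which extends fatty acids, with 153 and 16 counts (log2 fold change −3.18). The count called lower was 2 without mouse 3, 2 without mouse 4 and 3 without mouse 5. The median was −0.60. Scd2 had 724 ± 276 and 429 ± 199 CPM (SD, n = 5), Elovl5 483 ± 123 and 297 ± 126 CPM (SD, n = 5), and Msmo1 and Cers2 had log2 fold changes of −0.86 and −0.80, below the fold threshold. Of 7 peripheral myelin genes 4 were tested and 0 were called by edgeR's quasi-likelihood test, with 1 at an unadjusted p under 0.05, 1 called by edgeR's likelihood ratio test and 0 by DESeq2 or limma-voom. Pmp22 had 196 ± 35.0 and 230 ± 112 CPM (SD, n = 5), while Cdh19 had 37 counts in RFPLow and 28 in RFPHigh, and Dhh 11 and 0.

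**Figure D4:**
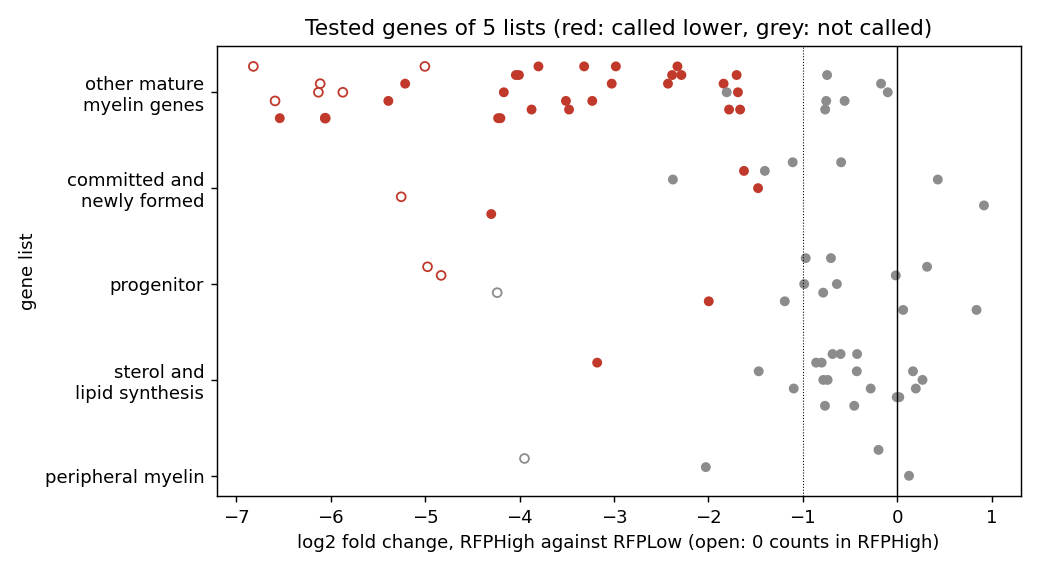
Log2 fold change of every tested gene of 5 lists, red where called lower and grey where not, and open where RFPHigh had 0 counts. Of the mature list 33 of 40 genes were called, of the progenitor list 3 of 14 and of the peripheral list 0 of 4.

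The level of these genes is read beside markers of the other cells that a brain suspension can hold. Over all genes, 9.14% were called lower and 5.75% higher in the first fit, and 6.75% and 2.8% in the wider one. The marker lists here and in the next paragraph draw on both fits. A marker rich in RFPLow alone can enter a fit through that population, so the counts called are descriptions. Microglia markers held 1.85% ± 0.375 of counts in RFPLow and 3.98% ± 0.378 in RFPHigh (SD, n = 5), and 15 of 20 were called higher, the most abundant being Ctss. Endothelial markers were called lower in 13 of 13 genes, from 0.534% ± 0.227 to 0.0218% ± 0.0105 of counts (SD, n = 5), and neutrophil markers in 6 of 6 tested genes. The most abundant genes of these lists, Flt1 and S100a8, were among those called. Astrocyte markers held 0.525% ± 0.0971 and 0.486% ± 0.243 (SD, n = 5), with 1 of 12 called lower, Ntsr2, which is near the share of all genes. Their most abundant gene, Slc1a2, was not called. Ensheathing glia markers held 0.0649% ± 0.0313 and 0.121% ± 0.0640 (SD, n = 5), with 3 of 6 tested genes called higher, Npy, Frzb and Prss56. Their most abundant gene, Fabp7, was not called. The study's authors took Npy and Fabp7 as markers of glial restricted progenitors, and which cells carry them was not tested here. For cells that also express a gene of the list, the defining marker Aqp4 of astrocytes had 433 and 292 counts in the populations, Npy of ensheathing glia 217 and 541, and Ttr of the choroid plexus 2551 and 716. Their part in the levels of Trf, Cnp and Apod was not tested.

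Mural markers were called lower in 7 of 9 tested genes, choroid plexus and ependymal markers in 2 of 7, fibroblast markers in 2 of 7 and lymphocyte markers in 3 of 5. The most abundant genes of these lists, Vtn, Ttr, Igf2 and Igkc, were among those called. Of neuronal markers 3 of 9 were called lower, Snap25, Stmn2 and Tubb3, and the most abundant, Meg3, was not called. The called marker genes of astrocytes, ensheathing glia and neurons were chosen for mention after their values were seen. Of 7 markers of CNS-associated macrophages, of which Mrc1 was the most abundant, 0 were called. Of these 7, 1 was at an unadjusted p under 0.05 in edgeR's quasi-likelihood test, 1 was called by its likelihood ratio test and 0 by DESeq2 or limma-voom. Enpp2 stands both in the choroid plexus list and in that of mature oligodendrocytes.

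**Figure D5:**
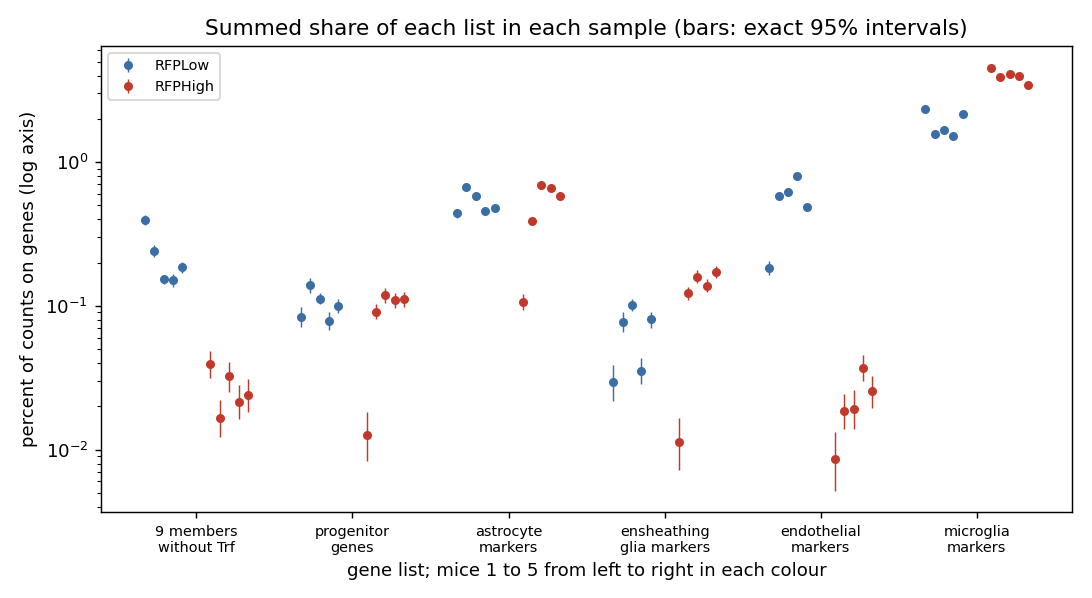
Percent of counts on genes that fell on each list in each sample, on a log axis, with exact 95% binomial intervals, RFPLow in blue and RFPHigh in red. The 9 genes without Trf lie between 0.151% and 0.396% in RFPLow and between 0.0166% and 0.0391% in RFPHigh, and the lowest progenitor and astrocyte shares are those of RFPHigh mouse 1.

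The 5 genes whose log2 CPM was most like the summed 10 genes over the 10 samples were Stmn4 (Pearson r = 0.976), Qdpr (0.974), Mapt (0.967), Trim59 (0.964) and AW112010 (0.964). These samples fall into the 2 populations, so that r mostly follows the difference between them, and all 5 were called lower. Stmn4 and Qdpr also stand in the list of mature oligodendrocyte genes. After the population means were taken off, the 5 most alike were Fermt3 (0.89), Wdr1 (0.889), Fam102b (0.889), Hnrnpab (0.881) and Grk2 (0.874), none of them in the lists above. The ranking was over 4201 genes and 10 samples and carries no test.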

How the data were processed

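The bulk samples of 5 mice were used, with 1 RFPLow and 1 RFPHigh sample per mouse, and the single-cell samples were not analysed here. The deposited values are counts per gene, made by the authors from QuantSeq 3′ FWD libraries with the Lexogen pipeline for libraries with molecular identifiers, and were not normalized. The build of the bulk data is not given in the sources used here, and mm10 stands in the submitters' processing notes. Symbols were found for 47224 of 47643 identifiers in GENCODE M21. Reads on no gene, 32.1% to 48.6% of reads, stayed out of library sizes.

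Counts were tested with edgeR 4.0.16 (glmQLFit, glmQLFTest) in R 4.3.3 with TMM scaling, the mouse as a block and Benjamini-Hochberg adjustment over all genes tested. Genes needed about 10 counts in at least 5 samples and 15 in all; genes below that were taken from the fit to genes with at least 10 counts in all, in which the spread was pooled over all genes. Intervals are from limma 3.58.1 with voom weights, and DESeq2 1.42.0 was an alternative. Log2 CPM outside the tests used a prior count of 2. The fit was tested on simulated data. Pairing by mouse comes from the labels and methods, and correlations of deviations within mice were 0.22, −0.04, 0.14, −0.01 and 0.02. Shares have exact 95% binomial intervals, and the limit set by a count of 0 was 3 counts; both cover counting error only.

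The members and lists were chosen with earlier results of these data known. Named genes are the 10 members, the 4 genes with the most counts in each lineage list, the gene with the most counts in each marker list and the defining first gene of lists of cells that also express a member, and the 5 most alike genes of each kind; genes named outside this rule are said to be so or were named for their known role in the lineage, and 1 gene that the rule takes is not reported here. Alternatives were other scalings, filters and tests, no block, no fold threshold, thinned counts and leaving out each mouse.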

Additional observations from a re-analysis of the deposited data

Results flagged for a closer look

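In groups of 5 samples, a sample stood apart from its group in 6 of 34 groups examined. Chance would give about 2 if the groups were independent and their values normally spread. The groups share samples and hold low counts, so 6 and 2 are not compared. Where all other samples are at 0, as for Mog, any count stands apart. In the RFPHigh sample of mouse 1, Mobp was at 53.92 CPM, above the other RFPHigh samples at 3.45 to 13.4 CPM, and progenitor genes held 0.01258% of counts, below the others at 0.0911% to 0.119%. In RFPLow mouse 1, Mag was at 304.6 CPM, with the others at 98.6 to 149 CPM, and Cnp at 451.2 CPM, with the others at 185 to 234 CPM. Olig1 was at 41.19 CPM in RFPHigh mouse 5, with the others at 0 to 8.97 CPM. Mog was at 3.992 CPM in RFPHigh mouse 4, which is 1 count, with the others at 0. No cause of these values was tested.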

How the results depend on the processing

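Of the 170 values of the 10 members under alternatives, 166 kept direction and side of the threshold, and the 9 genes called lower were called under each of the 17 alternatives of their test; the exception in direction was Trf, in 4 values. Without the mouse block, 374 genes were called lower and 240 higher, beside 385 and 242 with the pairing; no member call changed. Library sizes from microglia markers gave 2511 lower and 2 higher, 7 committed, 8 progenitor, 16 sterol and 3 peripheral genes lower, and log2 fold changes of −1.04 for Trf, −0.20 for Itpr2, −0.68 for Tcf7l2, −1.06 for Matn4 and −1.01 for Pmp22; this scaling moved the median by −1.11. Library sizes with reads on no gene, which moved it by −0.15, gave 149 higher, 3 sterol genes lower, and −0.069 for Trf, −0.094 for Matn4 and −0.022 for Pmp22.

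With all genes of at least 1 count 770 were called lower, and with at least 10 counts 828; Ptprz1 was then 0.054 and 0.061. Without a fold threshold 427 were higher and 4 sterol genes lower. The likelihood ratio test called 5 progenitor genes and 1 peripheral gene lower, and DESeq2 0 progenitor genes, giving no adjusted p for 6 of the 14. Thinned counts gave 2 sterol genes and 0.053 for Ptprz1. Ptprz1 was 0.14 and Apod 0.012 without the block, Ptprz1 0.10 by limma-voom and Matn4 −0.025 by DESeq2. Leaving out each mouse gave 0 to 4 progenitor and 1 to 3 sterol genes lower, −0.073 to 0.23 for Trf, −0.42 to 0.36 for Apod, −0.21 to 0.38 for Ptprz1, −0.078 to 0.23 for Matn4, −0.08 to 0.45 for Pmp22 and −0.51 to 0.19 for Cdh19. The mean share on the 10 members in RFPHigh was 0.0379% of a total with reads on no gene; without Trf it was 0.0267% of counts on genes. Beyond changed totals and gene numbers, the cause was not tested.

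Depth limits the low genes: with between 177287 and 415834 counts a sample, genes with few counts have fold changes of uncertain size.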
